A study of Mus musculus with 7 samples.

Results

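The receptors described here bind the constant (Fc) part of antibodies. The gene set held 9 members, namely Fcgr1, Fcgr3, Fcgr4, Fcer1g, Fcgr2b, Fcgrt, Fcer2a, Fcmr and Fcrls, chosen by name from the 57010 gene rows of a table of raw read counts. Each name matched 1 row, and all 9 genes passed the filter on low counts. Fcer2a and Fcmr passed it only through their reads at day 12. The data are poly-A RNA sequencing of Tim4+ resident macrophages of the peritoneal cavity, sorted by flow cytometry on staining for Tim4, CD11b and MHC class II, with a stated purity over 97%. There were 4 libraries from C57BL/6 mice injected with m204 MTO and sampled 12 days later, called day 12, and 3 libraries from control C57BL/6 mice without it, called steady state. The meaning of MTO is not stated in the labels, and the study title concerns peritoneal colorectal cancer. The labels speak of biological replicates and give no age, sex or pooling of animals. P-values reflect the spread among these 7 libraries.

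Macrophages read antibody-coated targets through Fc gamma receptors. The activating receptors (Fcgr1, Fcgr3 and Fcgr4 in the mouse) signal through a shared gamma chain, encoded by Fcer1g, whose activation motif is phosphorylated by Src family kinases and then recruits the kinase Syk. The inhibitory receptor Fcgr2b carries an inhibition motif of its own and recruits the lipid phosphatase SHIP1 (Inpp5d), so that the balance of activating and inhibitory receptors sets how strongly a cell answers immune complexes. Fcgrt encodes the heavy chain of the neonatal Fc receptor FcRn, which pairs with beta-2 microglobulin inside the cell and saves IgG and albumin from degradation.

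Totals were 34578834 to 38586694 counts in day 12 libraries and 32077050 to 36201021 in steady-state libraries. Levels are CPM, each library's counts scaled by its TMM-adjusted size, and means are given ± SD over n = 4 day 12 and n = 3 steady-state libraries. The day 12 libraries differed more among themselves than the steady-state libraries did. A chi-square per degree of freedom over genes was 28.3 between day 12 replicates 1 and 3 and 112 to 217 in the other 5 day 12 pairs, against 15.7 to 19.8 between steady-state libraries. All 10 macrophage markers had reads, and their summed level was 13400 to 20200 CPM at day 12 against 49400 to 51200 CPM in steady state. Most of that gap was lysozyme, Lyz2 (4624 ± 3767 CPM at day 12 and 42100 ± 819 CPM in steady state), while Adgre1, which encodes F4/80, stood at 4734 ± 563 CPM and 2573 ± 167 CPM. Timd4, which encodes Tim4 and is named here after its values were seen, stood at 495 ± 114 CPM at day 12 and 964 ± 80.5 CPM in steady state.

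At an edgeR adjusted p under 0.05, 5 of the 9 members changed, against 20.3% of the 15981 genes tested. Fcgr2b, Fcgr4 and Fcer2a were higher at day 12, where 10.1% of all genes were called higher. Fcgrt and Fcrls were lower, where 10.2% of all genes were called lower. Fcer2a had to differ to be tested at all, so it lends no weight to these counts. The other 4 members (Fcgr1, Fcgr3, Fcer1g and Fcmr) did not pass the test. The libraries of the 2 groups did not overlap for 4 members that stood higher and 3 that stood lower at day 12, against 35.0% of all genes tested in either direction. Fcer2a is among those 4 and lends no weight here either. The median log2 fold change was 0.19 over the members and 0.003 over all genes. Without steady-state replicate 3 no member was called lower and 2 were called higher, and the counts over all genes called higher and lower then became 857 and 904. Without steady-state replicate 1 or 2, or day 12 replicate 1 or 3, 1 member was called lower. Over all genes, leaving out steady-state replicate 1 or 2 gave 961 and 900 called higher and 907 and 904 called lower.

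**Figure D1:**
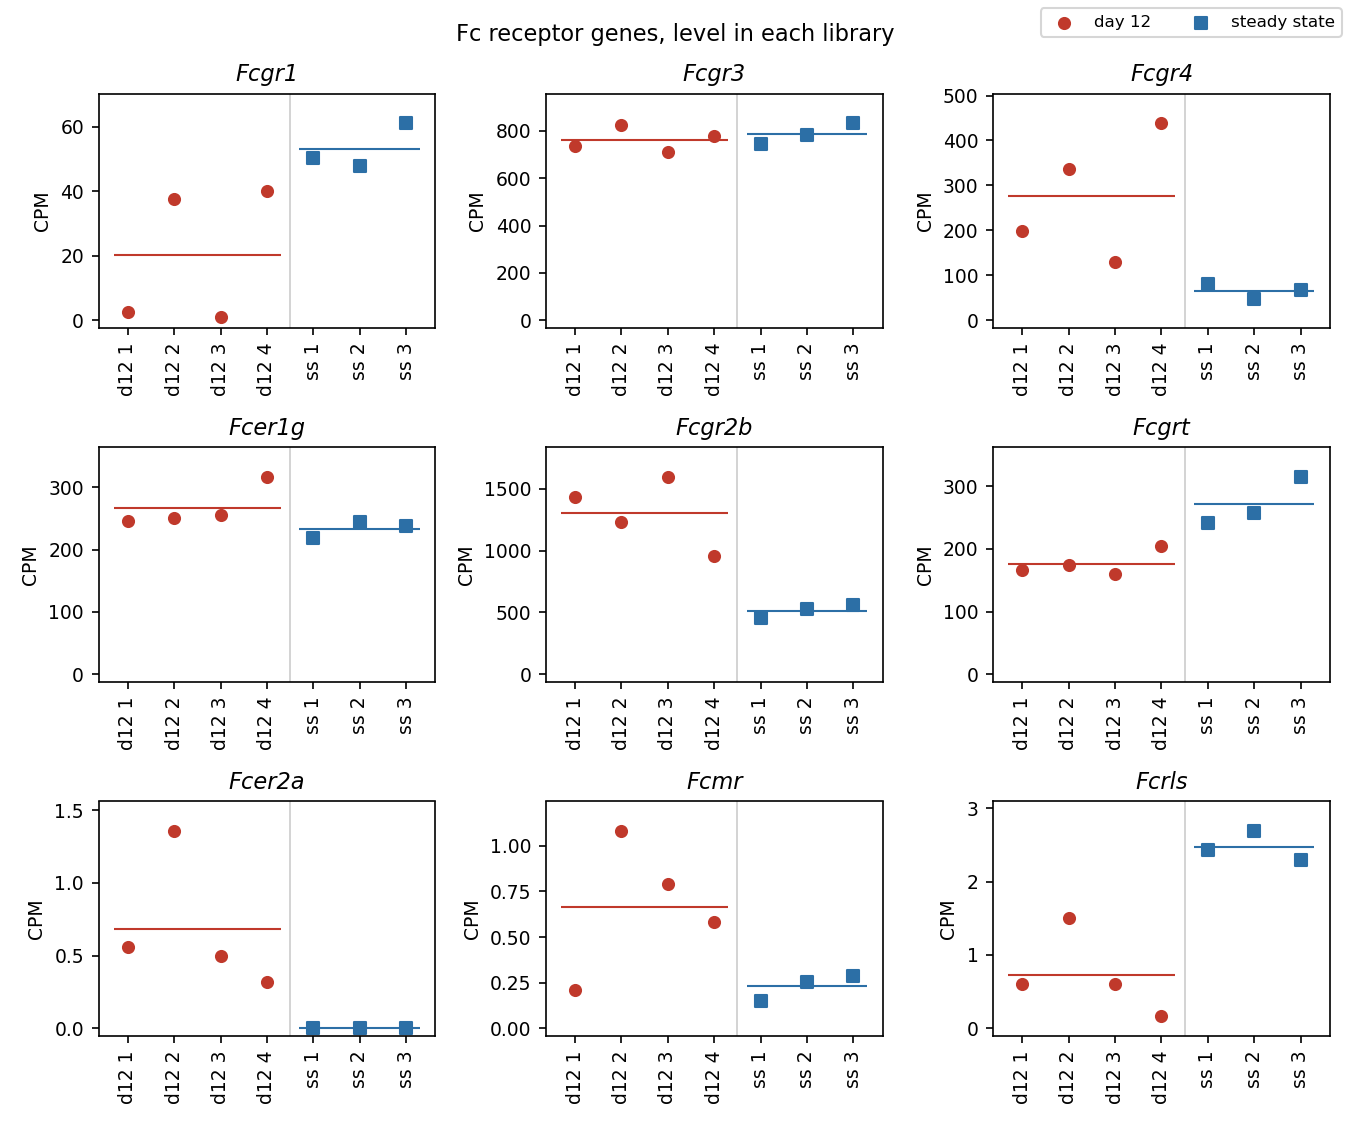
Level of each of the 9 Fc receptor genes in CPM (vertical axis, linear, from 0) in each library, with day 12 replicates 1 to 4 (d12, red circles) left of steady-state replicates 1 to 3 (ss, blue squares). Horizontal lines are group means, and each panel has its own scale. Day 12 lies wholly above steady state for Fcgr2b, Fcgr4, Fcer2a and, by a small margin, Fcer1g. It lies wholly below steady state for Fcgr1, Fcgrt and Fcrls.

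Fcgr1, the high-affinity IgG receptor CD64 and a common marker of macrophages (ENSMUSG00000015947, chromosome 3, 96190225 to 96201285, minus strand, GRCm39), had the widest spread of the abundant members among day 12 libraries. It had 2.703, 37.5, 0.947 and 40.2 CPM in day 12 replicates 1, 2, 3 and 4, against 50.4, 47.7 and 61.1 CPM in steady-state replicates 1, 2 and 3. Day 12 replicates 2 and 4 lay just under the lowest steady-state library, while replicates 1 and 3 had almost no Fcgr1 RNA, with 102 and 36 reads. The groups did not overlap, yet the difference did not pass the test (20.3 ± 21.4 CPM at day 12 and 53.1 ± 7.09 CPM in steady state, log2 fold change -1.39, SE 1.08, edgeR adjusted p = 0.421). DESeq2 gave -1.38 (adjusted p = 0.489) and limma-voom -2.75 (adjusted p = 0.0917), and the cause of that gap was not tested. In bulk samples, fewer cells that carry a transcript and less of it per cell cannot be told apart.

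Fcgr4, an activating receptor for IgG of monocytes, neutrophils and macrophages (ENSMUSG00000059089, chromosome 1, 170846489 to 170857330, plus strand, GRCm39), rose at day 12. It had 199.6, 336, 129 and 439 CPM in day 12 replicates 1 to 4, against 80.5, 46.7 and 66.7 CPM in steady-state replicates 1 to 3. Every day 12 library lay above every steady-state library, with replicate 4 the highest and replicate 3 the lowest. The means were 276 ± 138 CPM at day 12 and 64.6 ± 16.9 CPM in steady state, a 4.27-fold difference (log2 fold change 2.09, SE 0.43, edgeR adjusted p = 0.0133). The edgeR adjusted p was 0.0638 without the filter on low counts, 0.0545 without steady-state replicate 2 and 0.0563 without steady-state replicate 3. Markers of other cells that carry this receptor moved in different ways. The neutrophil markers summed to 110 to 199 CPM at day 12 against 432 to 449 CPM in steady state, nearly all of it Csf3r. S100a8 had 1.37 ± 0.316 CPM at day 12 and 0.775 ± 0.209 CPM in steady state. Ly6g and Mpo had no read in any library. The other neutrophil markers are named after their values were seen. Mmp8 had 0.0462 ± 0.0115 CPM at day 12 and 1.07 ± 0.293 CPM in steady state (edgeR adjusted p = 0.000233). S100a9 had 0, 1, 8 and 29 reads in day 12 replicates 1 to 4 and Ltf 2, 3, 8 and 8, against none in steady state. Retnlg (2, 1, 6 and 4 reads), Ngp (0, 0, 1 and 7) and Cxcr2 (0, 1, 0 and 4) also had none in steady state. Elane had 0.646 ± 0.181 CPM and 0.457 ± 0.0877 CPM, and Camp had 4 reads, in steady-state replicate 1 only. The monocyte markers summed to 67.0, 159, 50.7 and 210 CPM in day 12 replicates 1 to 4, against 68.4 to 73.2 CPM in steady state. Plac8 carried the high sums, and the other 8 markers together had 41.4, 66.7, 46.6 and 66.3 CPM in day 12 replicates 1 to 4, against 67.8 to 72.7 CPM in steady state. Ly6c2, a defining monocyte gene named here after its values were seen, stood at 0.341 ± 0.337 CPM at day 12 and 0.0504 ± 0.0195 CPM in steady state. The part of monocytes and neutrophils in the Fcgr4 result was not tested.

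The promoters of Fcgr1, Fcgr4 and Fcgr2b are shown because these are the 3 Fc gamma receptor genes whose groups did not overlap, and because replicate 3 of day 12 was lowest for Fcgr1 and Fcgr4 and highest for Fcgr2b. The windows run from 250 bases before to 50 bases after the transcript start, from RefSeq on GRCm38.p6, a build other than that of the count table, and are written 5′ to 3′ on the gene's strand. Capitals mark matches to 4 motifs searched on both strands, and no match overlapped another. The Fcgr1 window is chr3:96293920-96294219 (minus strand), the Fcgr4 window chr1:171018676-171018975 (plus strand) and the Fcgr2b window chr1:170976022-170976321 (minus strand).
Fcgr1: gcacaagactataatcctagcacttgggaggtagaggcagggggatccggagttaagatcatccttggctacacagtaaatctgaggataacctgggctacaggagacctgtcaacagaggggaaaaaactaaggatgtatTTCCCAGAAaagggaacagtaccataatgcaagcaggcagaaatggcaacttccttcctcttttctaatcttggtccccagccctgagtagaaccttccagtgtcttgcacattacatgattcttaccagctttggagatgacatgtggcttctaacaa
Fcgr4: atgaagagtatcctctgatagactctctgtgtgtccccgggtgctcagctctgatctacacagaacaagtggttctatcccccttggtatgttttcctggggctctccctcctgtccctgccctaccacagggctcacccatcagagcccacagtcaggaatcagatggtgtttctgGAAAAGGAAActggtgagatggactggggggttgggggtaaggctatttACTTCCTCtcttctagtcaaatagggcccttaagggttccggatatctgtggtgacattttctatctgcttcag
Fcgr2b: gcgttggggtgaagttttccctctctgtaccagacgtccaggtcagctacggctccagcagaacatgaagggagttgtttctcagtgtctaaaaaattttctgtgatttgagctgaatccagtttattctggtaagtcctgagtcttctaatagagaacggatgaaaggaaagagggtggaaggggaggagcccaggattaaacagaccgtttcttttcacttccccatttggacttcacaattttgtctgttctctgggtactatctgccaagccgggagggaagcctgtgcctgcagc
The Fcgr1 window held a GAS motif (TTCNNNGAA, the gamma-interferon activated site bound by STAT factors), read as TTCCCAGAA from position -109. This motif was in 8.3% of the 32851 RefSeq windows and in no other window of a member. The Fcgr4 window held an ISRE-type motif (GAAANNGAAA, of the kind bound by interferon regulatory factors) as GAAAAGGAAA from position -73, present in 3.44% of all windows. It also held a PU.1 box (GAGGAAGT), on the other strand as ACTTCCTC from position -24, present in 3.2% of all windows. The Fcgr2b window held none of the 4 motifs, the fourth being the STAT site with a wider gap (TTCNNNNGAA), which was in 6.95% of all windows and in 1 of the 3 windows of Fcer2a. All 9 members had at least 1 window, 12 in all, and a match of letters describes the window only.

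Fcgr3, the low-affinity activating receptor CD16 (ENSMUSG00000059498, chromosome 1, 170878743 to 170892504, minus strand), had similar levels in both groups. It had 736, 825, 710.4 and 781 CPM in day 12 replicates 1 to 4, against 744, 782 and 833 CPM in steady-state replicates 1 to 3. The groups overlapped and their means were 763 ± 50.4 CPM at day 12 and 786 ± 44.8 CPM in steady state (log2 fold change -0.04, SE 0.11, edgeR adjusted p = 0.815). NK cells also carry CD16, and their markers summed to at most 1.83 CPM at day 12 and at most 0.237 CPM in steady state. The part of NK cells in the Fcgr3 level was not tested. The most abundant of them were Eomes and Gzma, at 0.279 ± 0.0381 and 0.273 ± 0.0961 CPM at day 12, against 0.0384 ± 0.0333 CPM and no read in steady state.

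Fcer1g, the signalling gamma chain (ENSMUSG00000058715, chromosome 1, 171057141 to 171061934, minus strand), had 246, 250.2, 256 and 317 CPM in day 12 replicates 1 to 4, against 219, 245 and 237 CPM in steady-state replicates 1 to 3. All 4 day 12 libraries lay above the steady-state libraries, 3 of them by a small margin. The difference did not pass the test (267 ± 33.3 CPM at day 12 and 234 ± 13.1 CPM in steady state, log2 fold change 0.19, SE 0.12, edgeR adjusted p = 0.295). Per library, the log2 ratio of Fcer1g to the summed CPM of the receptors it serves here (Fcgr1, Fcgr3 and Fcgr4) was -1.98 ± 0.23 at day 12 and -1.95 ± 0.1 in steady state. Its direction turned when day 12 replicate 2 or steady-state replicate 2 was left out (0.07 and 0.03 on the log2 scale, against -0.02 with all libraries). Mast cells and basophils also need this chain for the IgE receptor, whose other subunits Fcer1a and Ms4a2 had 1 and 3 reads over all day 12 libraries and none in steady state. The mast cell and basophil markers summed to 126 to 198 CPM at day 12 against 63.7 to 84.0 CPM in steady state. Nearly all of this was Hdc (159 ± 29.4 CPM and 77.0 ± 11.6 CPM), followed by Cma1 at 0.105 ± 0.0854 CPM and 0.0411 ± 0.0356 CPM, and Tpsab1, Gata2 and Mrgprb1 had no read.

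Fcgr2b, the inhibitory receptor CD32b (ENSMUSG00000026656, chromosome 1, 170786186 to 170804116, minus strand), rose at day 12 in every library. It had 1433, 1228, 1595 and 958 CPM in day 12 replicates 1 to 4, against 455, 531 and 559 CPM in steady-state replicates 1 to 3. The lowest day 12 library, replicate 4, lay above the highest steady-state library. The means were 1304 ± 275 CPM at day 12 and 515 ± 53.9 CPM in steady state, a 2.53-fold difference (log2 fold change 1.34, SE 0.18, edgeR adjusted p = 0.00123). The call held in all 15 other settings tried, with log2 fold changes of 1.23 to 1.47 and adjusted p-values of 4.32e-11 to 0.00959. Fcgr2b and Fcgr3 are close relatives, and 44 of the 1733 stretches of 100 bases in Fcgr3 transcripts, the read length, were also in Fcgr2b transcripts (2.54%). Of the 5843 stretches of Fcgr2b transcripts, 4.3% were also in some other gene. The long noncoding Gm38204 on the other strand of Fcgr2b had 0 to 3 reads.

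**Figure D2:**
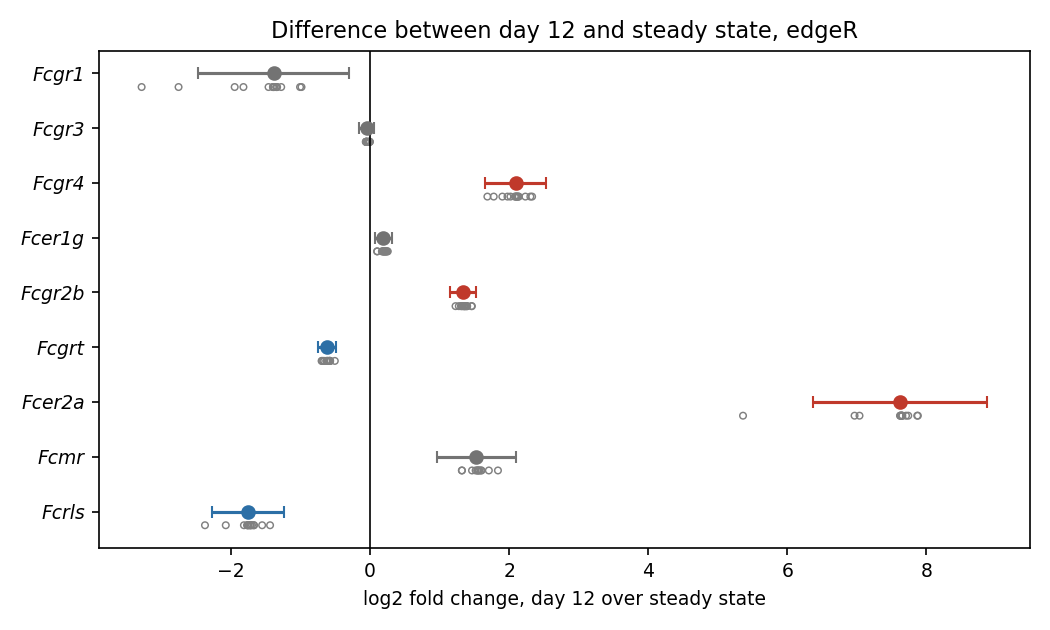
Log2 fold change of each member, day 12 over steady state (horizontal axis), from edgeR with the SE as bars, red where called higher, blue where called lower and grey where not called. Small open circles are the estimates under the other settings, the Fcgr1 bar is the widest among the abundant members, and the Fcer2a value rests on a steady-state group without reads and is no measure of size.

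The division of reads among the 4 Fc gamma receptor genes shifted towards Fcgr2b. Their summed level was 2371, 2426, 2435 and 2217 CPM in day 12 replicates 1 to 4, against 1330, 1408 and 1520 CPM in steady-state replicates 1 to 3. Fcgr2b took 60.4%, 50.6%, 65.5% and 43.2% of their reads in day 12 replicates 1 to 4, against 34.2%, 37.7% and 36.8% in steady state. Fcgr3 took 29.2% to 35.2% of them at day 12 against 54.8% to 55.9% in steady state, with no change in its own level that passed the test. The share of Fcgr4 was 8.42%, 13.8%, 5.29% and 19.8% at day 12 against 6.05%, 3.32% and 4.38% in steady state, so that day 12 replicate 3 lay inside the steady-state range. Fcgr1 took 0.114%, 1.54%, 0.0389% and 1.81% of the reads in day 12 libraries, against 3.39% to 4.02% in steady state in a description without a test.

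For each Fcgr3 read there were 1.95, 1.49, 2.25 and 1.23 Fcgr2b reads in day 12 replicates 1 to 4, against 0.612, 0.679 and 0.671 in steady state. The inhibitory gene thus had more reads than Fcgr3 in all 4 day 12 libraries and fewer in all 3 steady-state libraries. The log2 ratio averaged 0.75 ± 0.39 at day 12 and -0.61 ± 0.08 in steady state, a difference of 1.36. The log2 ratio of Fcgr4 to Fcgr3 averaged -1.62 ± 0.71 at day 12 and -3.64 ± 0.43 in steady state. For Fcgr1 to Fcgr3 it averaged -6.6 ± 2.64 and -3.9 ± 0.13, with -8.09 and -9.55 in day 12 replicates 1 and 3 and -4.46 and -4.28 in replicates 2 and 4. Ratios of reads between genes depend on transcript length, so the comparison here is between libraries.

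**Figure D3:**
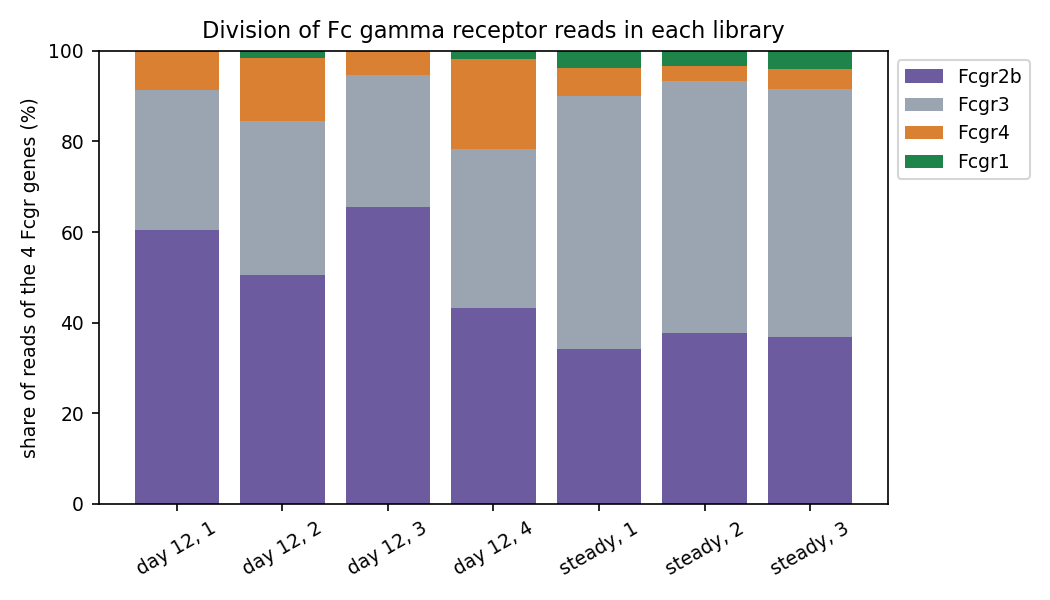
Share of the reads of the 4 Fc gamma receptor genes that each took (vertical axis, percent) in each library, day 12 replicates left of steady-state replicates. Fcgr2b holds 43.2% to 65.5% of the stack at day 12 and 34.2% to 37.7% in steady state, and the Fcgr1 layer is nearly gone in day 12 replicates 1 and 3.

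Per length, in CPM per kilobase of the gene's merged exons, Fcgr3 led in both groups, with a level of 440 ± 29.0 at day 12 and 453 ± 25.8 in steady state. Fcer1g followed with 306 ± 38.1 at day 12 and 267 ± 15 in steady state. Fcgr2b came next at day 12 with 225 ± 47.5, against 89.0 ± 9.32 in steady state, where it stood under Fcgrt. Fcgr4 had 220 ± 110 per kilobase at day 12, which did not differ from Fcgr2b beyond the spread, and 51.4 ± 13.5 in steady state. Fcgrt had 84.0 ± 9.39 at day 12 and 129 ± 18.1 in steady state, and Fcgr1 had 7.86 ± 8.27 and 20.5 ± 2.74. The order depends on the transcript taken as length. With the longest coding transcript in place of merged exons, Fcgr2b had 368 ± 77.6 per kilobase at day 12 and 145 ± 15.2 in steady state, within the spread of Fcer1g at day 12 (391 ± 48.7) and of Fcgrt in steady state (153 ± 21.6). Fcrls, Fcmr and Fcer2a stood lowest. Fcmr had 0.383 ± 0.21 per kilobase at day 12 and 0.132 ± 0.0417 in steady state, and Fcrls had 0.31 ± 0.24 and 1.06 ± 0.0848, so that at day 12 these genes did not differ beyond their spread.

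Fcgrt, the FcRn heavy chain (ENSMUSG00000003420, chromosome 7, 44742414 to 44753275, minus strand), fell at day 12. It had 167, 175, 160.0 and 205 CPM in day 12 replicates 1 to 4, against 242, 258 and 315 CPM in steady-state replicates 1 to 3. The groups did not overlap, and their means were 177 ± 19.7 CPM at day 12 and 271 ± 38.2 CPM in steady state (log2 fold change -0.62, SE 0.13, edgeR adjusted p = 0.00989). Without steady-state replicate 3, the highest library, it was -0.51 with an edgeR adjusted p of 0.0564. Its partner beta-2 microglobulin, B2m, had 2348, 2446, 1881 and 2266 CPM at day 12 against 1814, 1366 and 1721 CPM in steady state, higher in all 4 libraries without passing the test (log2 fold change 0.45, edgeR adjusted p = 0.0579). B2m is named here after its values were seen. Across the FcRn partner and endosomal recycling list, 1 of 18 tested genes rose (Rab11fip1, a Rab11 effector, log2 fold change 0.43) and 4 fell, with a median log2 fold change of -0.14. That is 5.56% and 22.2%, against 10.1% and 10.2% of all genes. Among those that fell, Ehd4, which shapes recycling endosomes, stood at 68.4 ± 7.43 CPM at day 12 and 139 ± 15.2 CPM in steady state (log2 fold change -1.03, edgeR adjusted p = 0.000581). Rab4a, of fast recycling, stood at 0.191 ± 0.135 CPM and 1.12 ± 0.134 CPM, and Myo5a, a vesicle motor, at 112 ± 19.7 CPM and 168 ± 4.37 CPM. Without any 1 steady-state library 2 of these genes fell and none rose. The count called higher was 0, 0, 2 and 4 without day 12 replicates 1, 2, 3 and 4.

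The remaining members had few reads. Fcer2a, the low-affinity IgE receptor CD23 known from B cells and follicular dendritic cells (ENSMUSG00000005540, chromosome 8, 3731737 to 3744175, minus strand), had 21, 54, 19 and 11 reads in day 12 replicates 1 to 4, against 0 reads in all 3 steady-state libraries. Its level was 0.683 ± 0.461 CPM at day 12, highest in replicate 2. Over pooled reads its day 12 level was 23.5-fold a floor of 3 counts over the steady-state group (0.0298 CPM). The exact 95% counting interval of the ratio began lower, at 18.8. The edgeR adjusted p was 0.00559, for a gene that entered the test only through the group where it is high. Fcmr, the IgM receptor of B cells (ENSMUSG00000042474, chromosome 1, 130793406 to 130808528, plus strand), had 8, 43, 30 and 20 reads in day 12 replicates 1 to 4, against 5, 9 and 9 reads in steady-state replicates 1 to 3. In CPM, day 12 replicate 1 lay inside the steady-state range and the other 3 above it, with means of 0.666 ± 0.365 CPM at day 12 and 0.229 ± 0.0723 CPM in steady state. The difference did not pass the test (log2 fold change 1.53, SE 0.57, edgeR adjusted p = 0.0876), but did without day 12 replicate 1 (1.84, edgeR adjusted p = 0.0213).

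Most B cell markers tested moved in the same direction as these 2 receptors. Of 13 tested, 8 rose and 2 fell, which is 61.5% and 15.4%, against 10.1% and 10.2% of all genes. Of those that rose, all but Cxcr5, named after its values were seen, entered the test only through day 12, where they are high. The summed level was still 38.5 to 82.3 CPM at day 12 against 96.0 to 113 CPM in steady state. That was because Bank1 (25.4 ± 9.09 CPM and 75.5 ± 2.83 CPM) and Blnk (9.01 ± 3.00 CPM and 22.0 ± 5.46 CPM) fell. Immunoglobulin chains summed to 20.7, 36.0, 17.2 and 17.0 CPM at day 12 against 4.29 to 6.99 CPM in steady state. Of 5 tested, 3 rose, or 60%, against 10.1% of all genes. Ighm and Igkc led them, at 14.1 ± 5.51 and 4.41 ± 2.03 CPM at day 12 and 4.29 ± 1.00 and 1.00 ± 0.484 CPM in steady state. Day 12 replicate 2 was the highest library for Fcer2a, Fcmr, Ighm and the immunoglobulin sum. No B cell marker was without a read in all libraries, and the part of B cell RNA in the Fcer2a and Fcmr results was not tested. Without steady-state replicate 1, 2 or 3, the count of B cell markers called higher was 5, 3 and 4, and without replicate 3 only 1 was called lower.

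Other receptors of antibodies and Fc receptor-like genes were mostly silent. Of 11 on the list, 4 were tested and 3 (Fcrl6, Fcamr and Fcgbp) had no read. Fcrl5 and Fcrla, known from B cells, rose to 0.467 ± 0.227 and 0.652 ± 0.266 CPM at day 12, against 0.0297 ± 0.0514 and 0.17 ± 0.0632 CPM in steady state (edgeR adjusted p = 0.0141 and 0.0197), and neither passed without steady-state replicate 2 or 3. With 3, 0 and 0 reads of Fcrl5 and 8, 4 and 5 of Fcrla in steady state, both entered the test only through day 12, where they are high. Fcrl1 stood at 0.452 ± 0.218 CPM and 0.224 ± 0.146 CPM and did not pass. Trim21, the antibody receptor of the cytosol, had 34.8 ± 5.005 CPM at day 12 and 25.6 ± 2.68 CPM in steady state (log2 fold change 0.44, edgeR adjusted p = 0.052). Fcrlb had 4, 4, 6 and 2 reads in day 12 libraries against none in steady state, and Pigr had 1 read in each group, and neither was tested.

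Fcrls, an Fc receptor-like scavenger receptor known in the mouse as a marker of microglia (ENSMUSG00000015852, chromosome 3, 87158065 to 87171045, minus strand), fell at day 12. It had 23, 60, 23 and 6 reads in day 12 replicates 1 to 4, against 82, 96 and 72 reads in steady-state replicates 1 to 3. In CPM the groups did not overlap, with 0.724 ± 0.561 CPM at day 12 and 2.47 ± 0.198 CPM in steady state (log2 fold change -1.76, SE 0.52, edgeR adjusted p = 0.0399). The call was lost without any 1 of the steady-state libraries (edgeR adjusted p of 0.105, 0.122 and 0.0982 without replicates 1, 2 and 3) and without day 12 replicate 1 (0.0873) or 3 (0.0775). Without day 12 replicate 2, the highest of its group, the log2 fold change was -2.37.

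Genes whose log2 CPM followed each member most closely over the 7 libraries were found among 10559 or 10560 genes with a mean of at least 5 CPM. These correlations are descriptions, since all points share the libraries and the step between the groups. For Fcgr1 they were Pilra, a paired immunoglobulin-like receptor (r = 0.989), and Dmpk, a kinase (r = 0.989). Pilra had 14.1, 118, 3.60 and 86.6 CPM in day 12 replicates 1 to 4, against 172, 170 and 154 CPM in steady state, again lowest in day 12 replicates 1 and 3. For Fcgr4 they were Plac8, a monocyte marker, and Plaat3, a phospholipase (r = 0.991 for each). Plac8 had 25.6, 92.2, 4.10 and 143 CPM in day 12 replicates 1 to 4, against 1.07, 0.476 and 0.639 CPM in steady state, the same order of day 12 libraries as Fcgr4.

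For Fcgr2b they were Car12, a carbonic anhydrase (r = 0.996), and Ero1a, an oxidase of the endoplasmic reticulum (r = 0.994). Car12 had 40.5, 21.9, 51.5 and 14.1 CPM in day 12 replicates 1 to 4, against 0.623, 1.20 and 1.21 CPM in steady state, highest in replicates 1 and 3, as was Fcgr2b. Colgalt1 was closest to Fcer1g (r = 0.997), Eid2b and Gm18541 to Fcgr3 (0.975 and 0.944), and Tmem19 and Tex261 to Fcgrt (0.988 for each). For the low-count members they were Atp5pb and Loxl2 for Fcer2a (0.992 for each), Gm9512 and Gm52969 for Fcmr (0.973 and 0.971) and Gm15500 and Eif1ax for Fcrls (0.995 for each). Between members, r was -0.785 for Fcgr1 and Fcgr2b, -0.911 for Fcgr2b and Fcgrt, and -0.168 for Fcgr1 and Fcgr4.

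**Figure D4:**
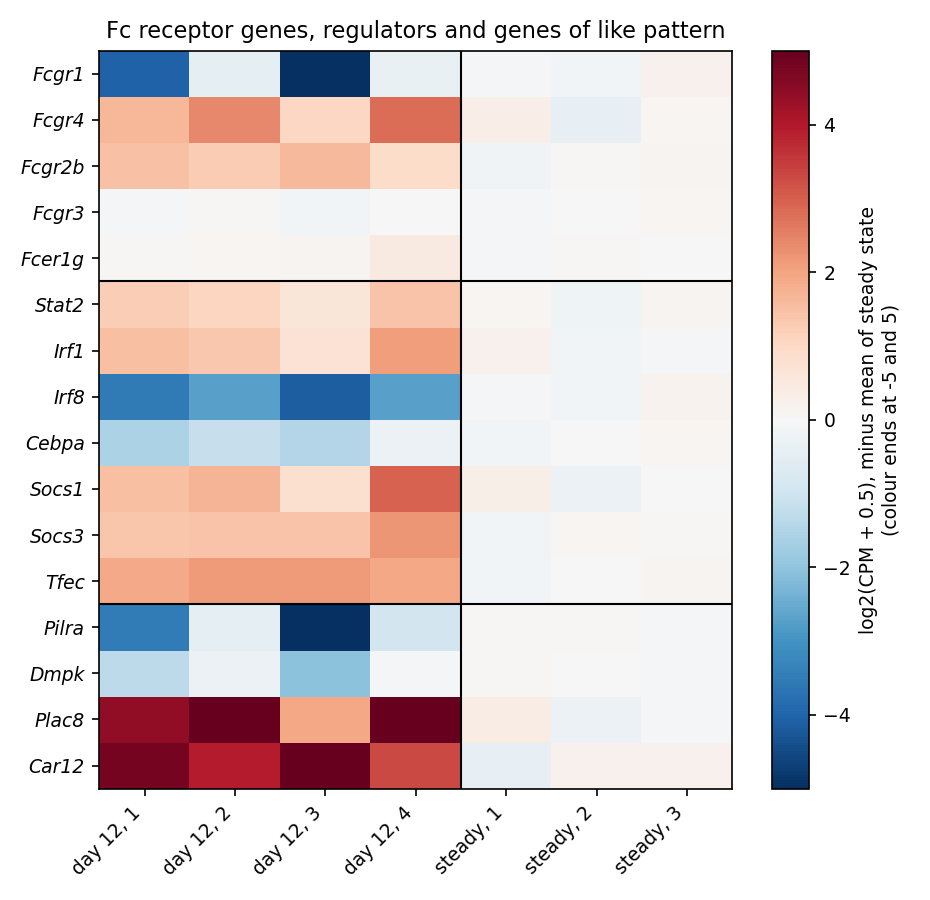
Log2(CPM + 0.5) of Fc gamma receptor genes and Fcer1g (top), regulators (middle) and genes of like pattern (bottom) in each library, minus the gene's steady-state mean. Day 12 libraries are left of steady-state libraries, and the colour scale ends at -5 and 5. The regulators shown (Stat2, Irf1, Irf8, Cebpa, Socs1, Socs3 and Tfec) and the genes of like pattern were picked by hand from longer lists. Fcgr1 and Pilra are darkest blue in day 12 replicates 1 and 3, where Fcgr2b and Car12 are reddest, while Fcgr4 and Irf1 are reddest in replicate 4.

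Regulators listed as acting on Fc receptor genes, an action not tested here, moved in both directions. Of 24 tested, 7 were called higher and 6 lower (median log2 fold change 0.16). That is 29.2% and 25%, against 10.1% and 10.2% of all genes. Tfec, a transcription factor of macrophages, rose to 38.2 ± 3.44 CPM at day 12, against 9.01 ± 0.971 CPM in steady state (log2 fold change 2.08, edgeR adjusted p = 4.28e-05). Socs3, an inhibitor of cytokine signalling, rose to 448 ± 141 CPM, against 142 ± 12.2 CPM, and Stat2, of the interferon pathway, to 175 ± 38.9 CPM, against 81.2 ± 10.7 CPM. Irf8, a lineage factor of mononuclear phagocytes, fell to 10.2, 18.4, 6.79 and 18.9 CPM in day 12 replicates 1 to 4, against 122, 116 and 140.3 CPM in steady state (log2 fold change -3.21, edgeR adjusted p = 0.000612). Its 2 lowest libraries, replicates 3 and 1, were also the lowest for Fcgr1. Ifnar1, the type I interferon receptor, fell to 73.2 ± 4.03 CPM, against 136 ± 11.5 CPM, and Tgfbr1 to 46.9 ± 8.89 CPM, against 75.7 ± 1.46 CPM.

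Irf1, a transcription factor of the interferon response that is named after its values were seen, rose as well. It had 254, 229.6, 149 and 386 CPM in day 12 replicates 1 to 4, against 104, 81.7 and 86.4 CPM in steady state (edgeR adjusted p = 0.00672). It was lowest in day 12 replicate 3 and highest in replicate 4, as was Fcgr4. Spi1, which encodes PU.1 and is also named after its values were seen, had 285 ± 78.5 CPM at day 12 and 202 ± 12.6 CPM in steady state and did not pass (edgeR adjusted p = 0.0945). Without steady-state replicate 2 or 3, 3 genes of the list were called lower in place of 6.

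Downstream of the activating receptors, 7 of 33 tested genes rose and 6 fell (median log2 fold change -0.04), which is 21.2% and 18.2% against 10.1% and 10.2% of all genes. Fgr, a Src family kinase, rose to 294 ± 30.3 CPM at day 12, against 127 ± 5.89 CPM in steady state (log2 fold change 1.21, edgeR adjusted p = 0.000223). Src rose to 6.47 ± 1.66 CPM, against 2.23 ± 0.437 CPM, and the adaptor Lcp2 (SLP-76) to 422 ± 43.3 CPM, against 286 ± 34.6 CPM. The adaptor Lat2 fell to 44.6 ± 6.84 CPM, against 86.6 ± 0.934 CPM (log2 fold change -0.96, edgeR adjusted p = 0.001). Pik3cg, a lipid kinase subunit, and Nfatc1, a transcription factor, fell to 53.1 ± 7.18 and 52.4 ± 8.16 CPM, against 99.7 ± 6.93 and 91.0 ± 3.14 CPM. Syk itself, named after its values were seen, had 390 ± 43.5 CPM at day 12 and 330.4 ± 21.9 CPM in steady state and did not pass (edgeR adjusted p = 0.204). Without steady-state replicate 1 or 3, 2 genes of the list were called higher and 3 lower, and without replicate 2, 4 were called higher.

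On the inhibitory side, none of 16 tested genes rose at an edgeR adjusted p under 0.05 and 2 fell (median log2 fold change -0.07), the 2 being 12.5%, against 10.2% of all genes called lower. None rose at an unadjusted p under 0.05, in DESeq2 or in limma-voom either. Ptpn22, a tyrosine phosphatase, fell to 8.24 ± 2.53 CPM at day 12, against 18.2 ± 2.83 CPM in steady state (edgeR adjusted p = 0.00898). Inpp5d, the SHIP1 gene that serves Fcgr2b and is named after its values were seen, had 220 ± 14.6 CPM at day 12 and 232 ± 13.7 CPM in steady state (edgeR adjusted p = 0.657). Of the 2 calls, 1 was left without steady-state replicate 1, 2 or 3 or day 12 replicate 1, 2 or 3, and there were 5 without day 12 replicate 4.

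Of other receptors that pair with the Fc gamma chain, 4 of 9 tested fell and none rose at an edgeR adjusted p under 0.05, at an unadjusted p under 0.05, in DESeq2 or in limma-voom (median log2 fold change -0.49). The 4 are 44.4% of the tested genes, against 10.2% of all genes called lower. Pira2, an activating immunoglobulin-like receptor, fell to 30.0 ± 2.87 CPM at day 12, against 66.8 ± 5.55 CPM in steady state (edgeR adjusted p = 0.000224). Pira12 fell to 9.15 ± 0.566 CPM, against 14.2 ± 1.83 CPM, and Pira1 to 45.5 ± 3.298 CPM, against 63.9 ± 5.51 CPM. The Pira genes are near-identical, so reads could be split between them. Clec4d, a C-type lectin, which also fell, had 72.1 ± 44.0 CPM at day 12 and 267 ± 78.1 CPM in steady state. Without steady-state replicate 2 or 3 only 1 was called lower, and without day 12 replicate 4, 1 was called higher. The 3 other signalling adaptors (Tyrobp, Cd247 and Hcst) did not pass the edgeR test, an unadjusted p under 0.05, DESeq2 or limma-voom, with Tyrobp at 588 ± 76.9 CPM at day 12 and 615 ± 30.9 CPM in steady state, named after its values were seen.

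The actin machinery of the phagocytic cup had 2 of 29 tested genes called higher and 3 lower (median log2 fold change -0.08), or 17.2% called, near the 20.3% of all genes. Myo1e, a membrane-bound myosin, rose to 128 ± 29.9 CPM at day 12, against 74.6 ± 17.0 CPM in steady state, and Arpc3, a subunit of the Arp2/3 complex, to 206 ± 16.3 CPM, against 159.8 ± 9.16 CPM. Arpc5, another subunit of it, fell to 302 ± 23.5 CPM, against 398 ± 17.6 CPM. Dock1, an activator of Rac, fell to 65.6 ± 7.06 CPM, against 87.5 ± 0.703 CPM, and Pld2, a phospholipase, to 42.7 ± 11.5 CPM, against 66.6 ± 0.978 CPM. Without steady-state replicate 1 or 2 none of these genes was called, and without replicate 3 only 1 was called higher and none lower. Without day 12 replicate 1 none was called lower, and without day 12 replicate 3 the counts were 1 higher and 1 lower.

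**Figure D5:**
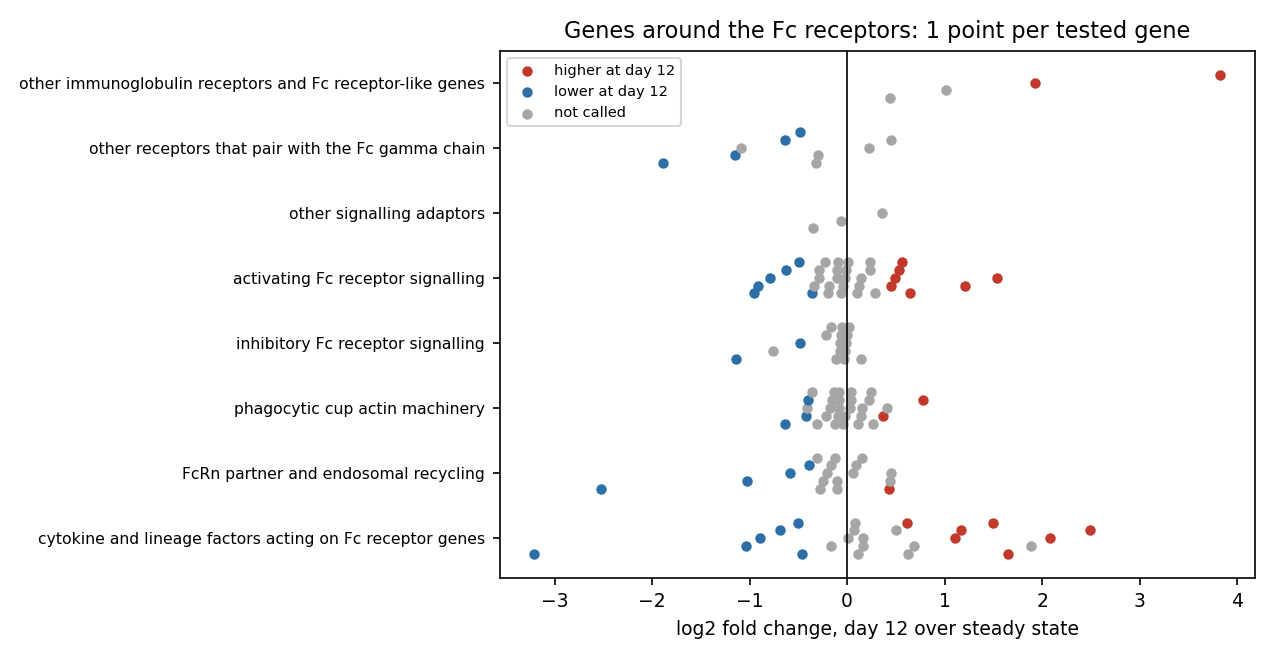
Log2 fold change, day 12 over steady state (horizontal axis), of every tested gene of 8 lists around the Fc receptors (rows), 1 point a gene, coloured by whether it was called higher, lower or not called. Points lie on either side of 0 in the signalling and regulator lists, while the partners of the gamma chain have 4 called lower and none called higher.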

How the data were processed

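Per the labels' protocols, 30 ng of total RNA per sample went into poly-A-selected directional libraries read as single reads of 100 nt. The authors deposited raw read counts per gene in 1 table, unnormalised, with gene symbols and positions. Per the submitters' processing notes, STAR 2.7.11a, SAMtools 1.10, featureCounts (Subread 2.0.6), FastQC and DESeq2 1.40.2 were used on GRCm39. Annotation release, strand setting and the handling of multiply mapping reads were not found in the labels, and they could change the values of related or overlapping genes.

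Library names tied each count column to its sample. The extract protocol mentions 3 replicates per condition, whereas titles and design text give 4 at day 12. Counts were tested with edgeR 4.0.16 (quasi-likelihood, robust, R 4.3.3) with TMM factors, the group as sole term, filterByExpr (minimum count 10, minimum total 15) and Benjamini-Hochberg adjustment over all 15981 genes at 0.05. CPM used the same effective library sizes, which put 3 counts in a library at 0.0754 to 0.0958 CPM. Intervals and floors cover counting error only. Alternatives were other scalings, DESeq2 1.42.0, limma-voom (limma 3.58.1), other filters, a replicate block and leaving out each library.

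Members and the 21 gene lists (277 of 281 symbols matched) were chosen with earlier results of these data known, so no list is independent evidence. Named genes were the members, the 3 called genes of each of 8 pathway lists with the lowest p in each direction, the other antibody receptors with a read, the 2 most abundant genes of each marker list and the 2 genes most correlated with each member. Transcript lengths and shared stretches came from GENCODE transcripts on GRCm38, and promoter windows from RefSeq on GRCm38.p6; no coordinates were converted between builds. Some items are not reported here.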

Additional observations from a re-analysis of the deposited data

Results flagged for a closer look

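In 35 checks of the day 12 group, 6 had a library whose gap to the nearest other library, divided by the range of the group, was above Dixon's critical value at 95% for a group of its size. Chance marks about 1 group in 20. The steady-state group, with 3 libraries, was too small to check. Fcer1g stood at 316.6 CPM in replicate 4, against 246 to 256 CPM in the other 3. The summed activating signalling genes stood at 4250 CPM in replicate 2, against 4566 to 4609 CPM. The summed inhibitory signalling genes stood at 2138 CPM in replicate 4, against 1806 to 1844 CPM. The summed cytokine and lineage factors stood at 5163 CPM in replicate 4, against 3497 to 3645 CPM. The summed macrophage markers stood at 20230 CPM in replicate 2, against 13390 to 14100 CPM. The summed eosinophil markers stood at 2.337 CPM in replicate 2, against 1.63 to 1.68 CPM.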

How the results depend on the processing

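Over 15 alternative settings, of which 7 left out a library each, no member's fold change turned direction in a setting that tested it, and the Fcgr2b call held in all 15. Leaving out 1 library gave 0 to 2 members called lower and 2 to 4 called higher, with 857 to 2188 genes called higher and 904 to 2411 called lower over the whole table. The log2 ratio of Fcer1g to its receptors, day 12 minus steady state, was -0.022 with all libraries and ran from -0.11 to 0.072 with 1 library left out (0.033 without steady-state replicate 2). Another scaling moved the median of all genes by 0.011 to 0.042 on the log2 scale. Without the filter on low counts 2 members were called higher, and the same number with a filter of 1 CPM in 3 libraries, where Fcer2a was not tested. Fcmr was tested in 12 of the settings, since it did not pass that filter or, without day 12 replicate 2 or 3, the usual one.

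Same-numbered libraries did not deviate together (correlations of -0.141, 0.008 and 0.203), so the numbers are not taken as pairs. With the replicate block, 2 members were called higher and 2 lower, and 1989 genes higher and 2289 lower over the table, with Fcgr4 at 1.69 (edgeR adjusted p = 0.113) and Fcgr1 at -3.28. Of 1506 values recomputed, 1260 kept direction and side of the threshold or moved little, 117 lost a call, 1 gained a call, 2 reversed and 126 moved. The low counts of Fcer2a, Fcmr and Fcrls limit what can be said of them.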

Other observations

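The remaining marker lists had these values. Dendritic cell markers summed to 66.4 to 381 CPM at day 12 against 29.7 to 55.1 CPM in steady state, led by Cd209a (172 ± 142 CPM and 37.1 ± 12.2 CPM, edgeR adjusted p = 0.0612) and Zbtb46 (5.25 ± 1.02 CPM and 5.32 ± 0.432 CPM). T cell markers summed to 1.38 to 4.37 CPM at day 12 against 4.03 to 7.15 CPM in steady state, led by Cd28 (0.245 ± 0.0715 CPM and 4.27 ± 1.42 CPM) and Lck (0.487 ± 0.249 CPM and 0.0924 ± 0.0869 CPM). Plasma cell markers summed to 321 to 388 CPM at day 12 against 306 to 333 CPM in steady state, nearly all Xbp1 (240.2 ± 9.93 CPM and 253 ± 19.6 CPM) and Irf4 (112 ± 34.3 CPM and 68.3 ± 9.80 CPM). Eosinophil markers summed to 1.63 to 2.34 CPM at day 12 against 1.75 to 1.88 CPM in steady state, with Siglecf at 1.18 ± 0.347 CPM and 0.424 ± 0.162 CPM and Ccr3 at 0.536 ± 0.309 CPM and 1.33 ± 0.235 CPM. Epithelial and mesothelial markers summed to 2.12 to 3.19 CPM at day 12 against 0.14 to 0.356 CPM in steady state, led by Cdh1 (2.01 ± 0.658 CPM and 0.129 ± 0.0182 CPM) and Krt18 (0.315 ± 0.178 CPM and 0.0395 ± 0.0685 CPM). Handling and immediate early genes summed to 1150 to 1390 CPM at day 12 against 771 to 1060 CPM in steady state. Of 10 tested, 6 were called higher and 2 lower, which is 60% and 20%, against 10.1% and 10.2% of all genes. By their mean over all 7 libraries, Junb (368 ± 110.4 CPM and 159 ± 8.96 CPM) and Dusp1 (232 ± 22.8 CPM and 254 ± 75.7 CPM) were the most abundant. Named after their values were seen, Fos stood at 251 ± 44.5 CPM at day 12 and 48.6 ± 17.7 CPM in steady state (edgeR adjusted p = 0.000382), and Hspa1b at 47.2 ± 9.94 CPM and 201 ± 37.2 CPM (edgeR adjusted p = 0.000163). Their part in the Fc receptor results was not tested.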
